A study of Mus musculus with 3 samples.

Results

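The 32 genes described here encode the glucose transporters, the enzymes of glycolysis and of the pentose phosphate pathway, the lactate exporters, and 3 neighbouring enzymes (Fbp1, Pdk1 and Pdha1). They were taken by gene symbol from a list chosen with earlier results of these data known, not by a threshold on any measured value, and make up 32 of the 32285 genes counted. The symbol Aldoa stands on 2 table rows, so the list covers 33. The measurements are single-cell RNA counts from mouse bone marrow, with 1 library for each of 3 genotypes. The Lztr1 knockout mice were Lztr1fl/fl;Mx1Cre+, so both alleles of Lztr1, which encodes an adaptor that brings RAS-family proteins such as RIT1 to a ubiquitin ligase, were floxed. The Rit1-M90I mice were Rit1M90I/+;Mx1Cre+ and carried 1 altered allele of the small GTPase Rit1. The Cre-negative control was labelled Rit1M90I/+Mx1Cre-, with a title that also calls it wild type. All mice received pIpC, a double-stranded RNA mimic that induces the interferon-driven Mx1-Cre, in 3 doses of 12 mg/kg at 8 weeks of age, and marrow was taken 4 weeks later. Mx1-Cre acts in any interferon-responsive cell, not in blood cells alone. The Cre transgene was present in both mutants and absent from the control, so its effect and that of the altered alleles cannot be told apart. The labels do not say how many mice went into a library.

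Live cells negative for CD3, CD11b, Gr1, B220 and Ter119 had been sorted before capture. After filtering, 2338, 9351 and 7262 cells with 27617480, 79554199 and 62250764 unique molecular identifiers (UMIs, 1 per captured mRNA molecule) were kept in the Lztr1 knockout, Rit1-M90I and control libraries. Lztr1 itself stood at 6.34 CPM in the Lztr1 knockout, 15.2 CPM in the Rit1-M90I and 17.3 CPM in the control library, and the place of the floxed part relative to the 3′ tags is not stated in the labels. Pairs of libraries shared 5 to 19 cell barcodes. Cells were assigned by fixed marker genes to 9 main populations of at least 50 cells in every library. They are called stem-like (stem and multipotent), lymphoid-like (lymphoid progenitor), pDC-like (plasmacytoid dendritic), monocyte-like, neutrophil-like (neutrophil progenitor), basophil/mast-like, erythroid-progenitor-like, erythroblast-like (hemoglobin-rich) and T-like. No gene of the list is a marker for any of them. Between 21.4% and 24.5% of the kept cells of a library matched no population clearly. The T-like cells carried Cd3e, Cd3d and Cd3g transcripts although the sort selected against CD3 protein. Markers of natural killer (NK) cells also summed to 1146, 1424 and 1676 UMIs per 1000000 in the T-like cells of the Lztr1 knockout, Rit1-M90I and control libraries. In the other main populations these markers reached 168 at most. Levels are given as UMIs of a gene per 1000000 UMIs (CPM) of the summed cells of a population, and since 3′ counting gives each mRNA 1 tag, no correction for gene length applies. In such sums, fewer expressing cells and less RNA per cell cannot be told apart.

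Glycolysis converts glucose into pyruvate with a gain of ATP. Hexokinases trap glucose as glucose 6-phosphate, phosphofructokinase commits it to the pathway, and pyruvate kinase carries out the last step. The pentose phosphate pathway branches off at glucose 6-phosphate and yields NADPH and ribose 5-phosphate. Blood lineages are known for different uses of it: mature red cells have no mitochondria and live on glycolysis, neutrophils burn NADPH in their oxidative burst, and blood stem cells are known for a glycolytic metabolism in a low-oxygen niche. Several steps have alternative isozymes encoded by separate genes, among them hexokinase (Hk1, Hk2, Hk3) and pyruvate kinase (Pkm, Pklr).

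Promoter windows are shown for Pklr, Hk2 and Hk3, which are 3 of the isozyme genes that differed between the populations. Each window runs from 250 bases before to 50 after an annotated start site and is taken from RefSeq on build GRCm38.p6, written 5′ to 3′ on the strand of the gene. Capitals mark AGATAA (the core of GATA factor motifs), ACGTG (the core of hypoxia-inducible factor motifs) and GAGGAA (the core of PU.1 motifs). Both strands were searched, so that a motif can also appear as TTATCT (for GATA factors), as CACGT (for hypoxia-inducible factors) or as TTCCTC (for PU.1). Pklr, on chromosome 3, has 2 windows, at chr3:89135892-89136191 and chr3:89136373-89136672 on the plus strand, and mammalian Pklr is known to use an upstream start in erythroid cells and a downstream one in liver. The Hk2 window is chr6:82774405-82774704 and the Hk3 window chr13:55021336-55021635, both on the minus strand.
Pklr upstream window: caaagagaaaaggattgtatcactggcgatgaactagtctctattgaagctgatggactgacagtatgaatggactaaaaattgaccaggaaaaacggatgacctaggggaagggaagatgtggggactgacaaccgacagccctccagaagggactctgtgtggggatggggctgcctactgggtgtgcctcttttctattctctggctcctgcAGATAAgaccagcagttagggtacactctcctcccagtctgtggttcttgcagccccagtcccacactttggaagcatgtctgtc
Pklr downstream window: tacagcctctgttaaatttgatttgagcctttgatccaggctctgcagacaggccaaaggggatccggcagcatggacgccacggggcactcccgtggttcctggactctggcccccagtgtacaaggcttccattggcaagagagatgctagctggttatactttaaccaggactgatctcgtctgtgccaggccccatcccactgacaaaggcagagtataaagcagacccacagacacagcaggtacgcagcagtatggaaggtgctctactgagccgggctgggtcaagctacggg
Hk2 window: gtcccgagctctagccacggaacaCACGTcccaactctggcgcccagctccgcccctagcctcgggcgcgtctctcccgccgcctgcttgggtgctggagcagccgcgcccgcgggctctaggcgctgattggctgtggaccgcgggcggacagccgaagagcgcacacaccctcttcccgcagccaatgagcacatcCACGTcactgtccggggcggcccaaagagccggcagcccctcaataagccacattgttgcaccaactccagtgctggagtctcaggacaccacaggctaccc
Hk3 window: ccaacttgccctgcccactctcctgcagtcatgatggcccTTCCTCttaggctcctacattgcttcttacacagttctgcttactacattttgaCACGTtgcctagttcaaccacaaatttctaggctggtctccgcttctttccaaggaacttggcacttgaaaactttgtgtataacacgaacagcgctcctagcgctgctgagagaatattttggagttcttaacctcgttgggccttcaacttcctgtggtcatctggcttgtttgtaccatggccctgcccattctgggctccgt
The upstream Pklr window held AGATAA 35 bases before the start site, and the downstream window held none of the 3 motifs. The Hk2 window held ACGTG at 226 and 52 bases before the start, and the Hk3 window held GAGGAA at 210 and ACGTG at 156 bases before it. Promoter windows were found for 31 of the 32 genes, 46 windows in all, and Slc2a3 was the gene without one. ACGTG was present in 19 of these 46 (41.3%), against 19.6% of all 32851 promoter windows in the table. AGATAA was present in 6 (13.04%), against 11.2% of all windows, and GAGGAA in 12 (26.1%), against 28.3%. The 3′ counts do not tell which start site was used, and a letter match is a description of the sequence only.

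The pathway as a whole was most abundant in the neutrophil-like cells. The 32 genes together made up 6305 in the Lztr1 knockout, 6569 in the Rit1-M90I and 6225 CPM in the control library there. The basophil/mast-like cells had 5193 in the Lztr1 knockout, 5082 in the Rit1-M90I and 4964 CPM in the control library, and the monocyte-like cells 4853 in the Lztr1 knockout, 5041 in the Rit1-M90I and 4852 CPM in the control library. At the low end the T-like cells had 2448 in the Lztr1 knockout, 2749 in the Rit1-M90I and 2528 CPM in the control library, and the erythroblast-like cells 2458 in the Lztr1 knockout, 2748 in the Rit1-M90I and 2679 CPM in the control library. The ranges of the neutrophil-like libraries and of every other population did not overlap, and Gapdh alone gave between 10.1% and 25.1% of these sums.

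**Figure D1:**
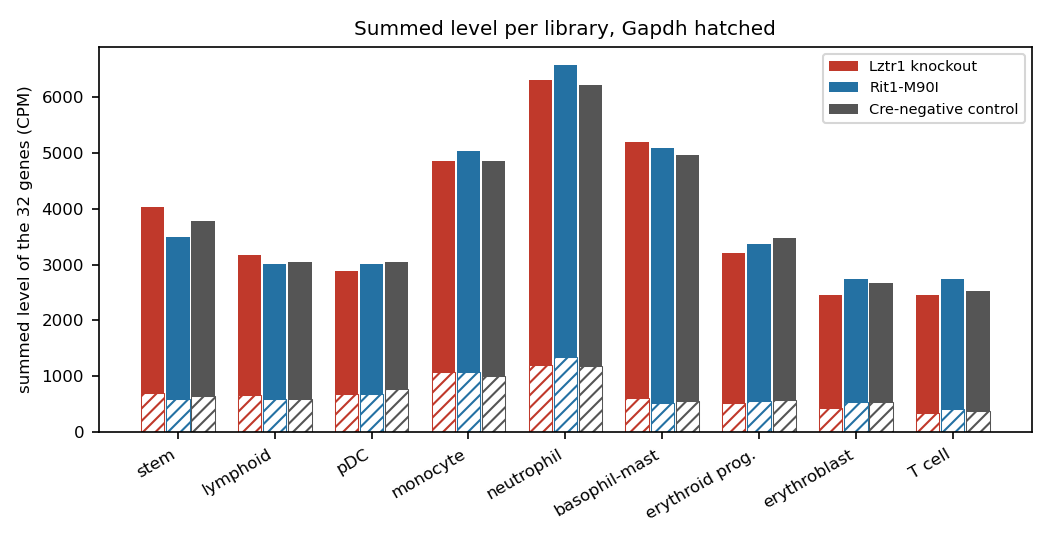
Summed level of the 32 genes (y axis, CPM) in each population, with 1 bar per library and the part given by Gapdh hatched. The 3 neutrophil-like bars reach between 6225 and 6569 CPM, above all others, and the T-like and erythroblast-like bars are the lowest.

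Each population was compared with the mean of the other 8 by edgeR's quasi-likelihood test on summed UMIs, with Benjamini-Hochberg adjustment over 11254 genes and a call at an adjusted p below 0.05. Here the 3 libraries serve as the replicates of a population, although their genotypes differ. The brain-type isozymes Aldoc and Eno2 were too low to be tested, which left 30 genes. In the neutrophil-like cells 25 of the 30 were higher and 4 lower, where 38.8% and 29.6% of all genes tested were called in those directions, and the median log2 difference was 1.10 for the 30 and 0.04 for all genes. In the monocyte-like cells 20 were higher and 5 lower (all genes 37.1% and 22.2%), with medians of 0.50 and 0.06. The basophil/mast-like cells had 17 higher and 10 lower (all genes 32.9% and 36.6%; medians 0.27 and -0.08). These 3 populations of the myeloid branch were the ones in which the list's median lay furthest above that of all genes.

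The reverse held in the erythroblast-like cells, where 7 genes were higher and 19 lower (all genes 34.1% and 35.0%), and the medians were -0.77 for the list and -0.09 for all genes. The pDC-like cells had 0 higher and 18 lower (all genes 24.8% and 21.2%; medians -0.47 and -0.02). Of the 30 genes, 3 had a positive difference there, 2 of them with an unadjusted p below 0.05 in edgeR and 2 with a call in DESeq2. In the lymphoid-like cells 5 were higher and 18 lower (all genes 24.6% and 19.8%; medians -0.32 and 0.01), and in the T-like cells 7 and 14 (all genes 27.2% and 28.1%; medians -0.39 and -0.06). The erythroid-progenitor-like cells split almost evenly, with 14 higher and 15 lower (all genes 40.5% and 33.8%; medians -0.04 and 0.03). The stem-like cells had 13 higher and 6 lower (all genes 25.3% and 22.8%; medians 0.11 and 0.01).

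These splits depend in part on scaling. With library sizes alone in place of edgeR's TMM factors, the median of all genes moved by -0.33 in the neutrophil-like, 0.23 in the stem-like, 0.19 in the pDC-like, -0.17 in the erythroblast-like, 0.16 in the lymphoid-like and -0.10 in the monocyte-like cells (log2). The counts higher and lower then became 22 and 5 in the neutrophil-like, 19 and 6 in the monocyte-like, 17 and 2 in the stem-like, 6 and 13 in the lymphoid-like and 2 and 13 in the pDC-like cells. Of all called genes, the share called higher changed from the TMM value to the unscaled one by more than 10 percentage points in 5 populations: 56.7% and 33.2% in the neutrophil-like, 52.6% and 78.6% in the stem-like, 55.4% and 75.0% in the lymphoid-like, 53.9% and 73.9% in the pDC-like and 62.6% and 50.1% in the monocyte-like cells. The calls that held, in the same direction, under every alternative tried numbered 22 of 25 higher calls in the neutrophil-like, 14 of 20 in the monocyte-like, 15 of 17 in the basophil/mast-like, 12 of 14 in the erythroid-progenitor-like, 8 of 13 in the stem-like, 7 of 7 in the erythroblast-like, 6 of 7 in the T-like and 3 of 5 in the lymphoid-like cells. Of the lower calls, those that held numbered 16 of 19 in the erythroblast-like, 12 of 18 in the pDC-like, 10 of 18 in the lymphoid-like, 11 of 15 in the erythroid-progenitor-like, 8 of 14 in the T-like, 7 of 10 in the basophil/mast-like, 2 of 6 in the stem-like, 2 of 5 in the monocyte-like and 2 of 4 in the neutrophil-like cells. The calls given below for single genes of the list are of this kind unless it is said otherwise.

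**Figure D2:**
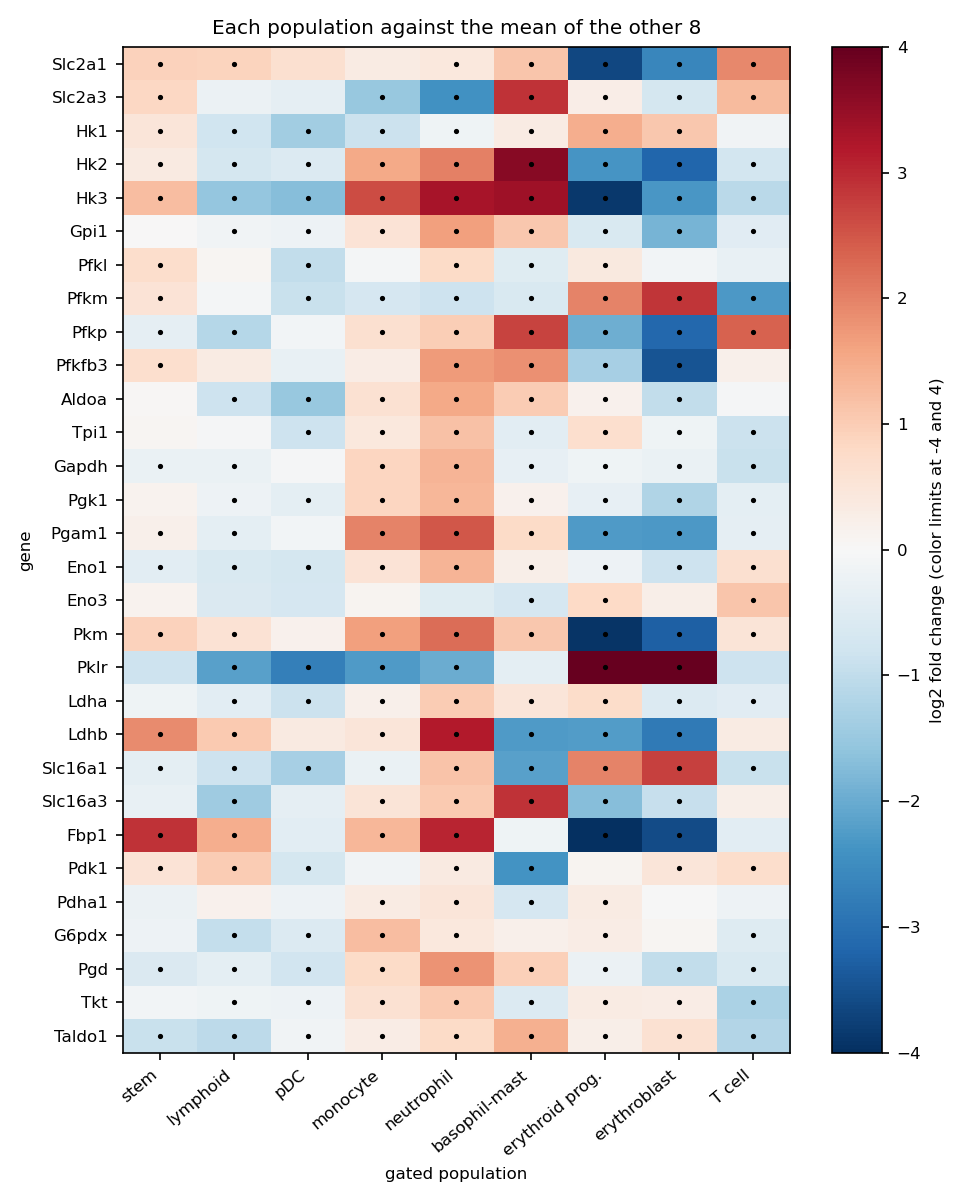
Log2 difference of each tested gene (down the page) between a population (across) and the mean of the other 8, from edgeR, with the colour scale cut at -4 and 4 and a dot on each call. The neutrophil-like column is mostly positive and the erythroblast-like column mostly negative, with Pklr, Pfkm, Hk1 and Slc16a1 positive in the erythroblast-like column.

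The facilitative glucose transporters were low and unevenly spread. Slc2a3, which encodes the high-affinity transporter GLUT3, stood at 109, 107 and 102 CPM in the Lztr1 knockout, Rit1-M90I and control libraries in basophil/mast-like cells, against 2.75 to 44.8 CPM in the others (log2 difference 2.89 ± 0.09 (SE), edgeR adjusted p = 1.1e-42). Every basophil/mast-like library lay above every library of the other populations. Slc2a3 was also higher in T-like cells (1.25 ± 0.17) and in stem-like cells (0.84 ± 0.15), and lower in neutrophil-like cells (-2.41 ± 0.15), where it stood at 2.75 to 5.07 CPM. Slc2a1, which encodes GLUT1, was highest, among the 9 main populations, in the T-like cells, with 12.1, 15.6 and 17.1 CPM in the Lztr1 knockout, Rit1-M90I and control libraries (log2 difference 1.93 ± 0.28 (SE), edgeR adjusted p = 1.6e-08). In the erythroid-progenitor-like cells it had 0.385 CPM in the Lztr1 knockout, 0.580 CPM in the Rit1-M90I and 0.424 CPM in the control library (log2 difference -3.64 ± 0.35 (SE), edgeR adjusted p = 2.4e-15). Mouse red cells are known to lose GLUT1 after birth, in contrast to human ones. Of the UMIs of the 2 transporter genes, Slc2a3 gave 97.6% ± 0.376 in erythroid-progenitor-like and 92.0% ± 2.86 in basophil/mast-like cells, and 37.9% ± 3.63 in neutrophil-like cells (SD, n = 3 libraries).

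The 3 hexokinase genes were divided between the lineages. Hk1, the housekeeping hexokinase, was highest in the erythroid-progenitor-like cells, with 144 CPM in the Lztr1 knockout, 128 CPM in the Rit1-M90I and 134 CPM in the control library, against 26.9 to 91.3 CPM in the 7 populations that are not erythroid (log2 difference 1.47 ± 0.06 (SE), edgeR adjusted p = 5.0e-36). The erythroblast-like cells had 113, 98.9 and 88.6 CPM in the Lztr1 knockout, Rit1-M90I and control libraries (log2 difference 1.08 ± 0.09 (SE), edgeR adjusted p = 1.5e-18). In both erythroid populations every library lay above every library of the monocyte-like cells, which had 27.7 to 37.1 CPM, and of the pDC-like cells, which had 26.9 to 28.2 CPM. The erythroblast-like range, down to 88.6 CPM, overlapped that of the 7 populations that are not erythroid, which reached 91.3 CPM.

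Hk2, an inducible hexokinase bound to mitochondria, was highest in the basophil/mast-like cells. It stood there at 242 CPM in the Lztr1 knockout, 272 CPM in the Rit1-M90I and 175 CPM in the control library, against 0 to 80.2 CPM in the others (log2 difference 3.63 ± 0.08 (SE), edgeR adjusted p = 5.6e-49). It was next highest in neutrophil-like cells, with 80.2, 74.9 and 49.998 CPM in the Lztr1 knockout, Rit1-M90I and control libraries (2.02 ± 0.09), and in monocyte-like cells, with 63.6, 63.2 and 43.7 CPM in the Lztr1 knockout, Rit1-M90I and control libraries (1.52 ± 0.09). The neutrophil-like and monocyte-like ranges overlapped. In erythroid-progenitor-like cells Hk2 stood at 4.12 to 6.52 CPM (log2 difference -2.37 ± 0.15 (SE), edgeR adjusted p = 1.1e-22).

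Hk3, a hexokinase known from myeloid cells, marked the same 3 populations. Neutrophil-like cells had 115, 92.9 and 113 CPM in the Lztr1 knockout, Rit1-M90I and control libraries (log2 difference 3.30 ± 0.13 (SE), edgeR adjusted p = 5.8e-15), basophil/mast-like cells 108, 155 and 149.6 CPM in the Lztr1 knockout, Rit1-M90I and control libraries (log2 difference 3.39 ± 0.15 (SE), edgeR adjusted p = 1.2e-14), and monocyte-like cells 77.5, 83.6 and 76.7 CPM in the Lztr1 knockout, Rit1-M90I and control libraries (log2 difference 2.62 ± 0.14 (SE), edgeR adjusted p = 1.2e-12). The first 2 of these overlapped in level. Stem-like cells held 38.2, 32.2 and 49.4 CPM in the Lztr1 knockout, Rit1-M90I and control libraries (1.22 ± 0.24), and the erythroid-progenitor-like cells 0.769 to 2.46 CPM.

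As shares of all hexokinase UMIs, Hk1 gave 95.4% ± 1.71 in erythroid-progenitor-like and 94.2% ± 2.57 in erythroblast-like cells, 69.6% ± 9.45 in T-like, 62.6% ± 8.09 in lymphoid-like, 53.8% ± 10.7 in pDC-like and 53.4% ± 2.76 in stem-like cells. In the basophil/mast-like cells Hk2 gave the largest share, 52.1% ± 7.44, followed by Hk3 with 31.5% ± 5.79. In the neutrophil-like and monocyte-like cells it was Hk3, with 49.0% ± 5.23 and 47.4% ± 4.16 (SD over 3 libraries throughout).

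**Figure D3:**
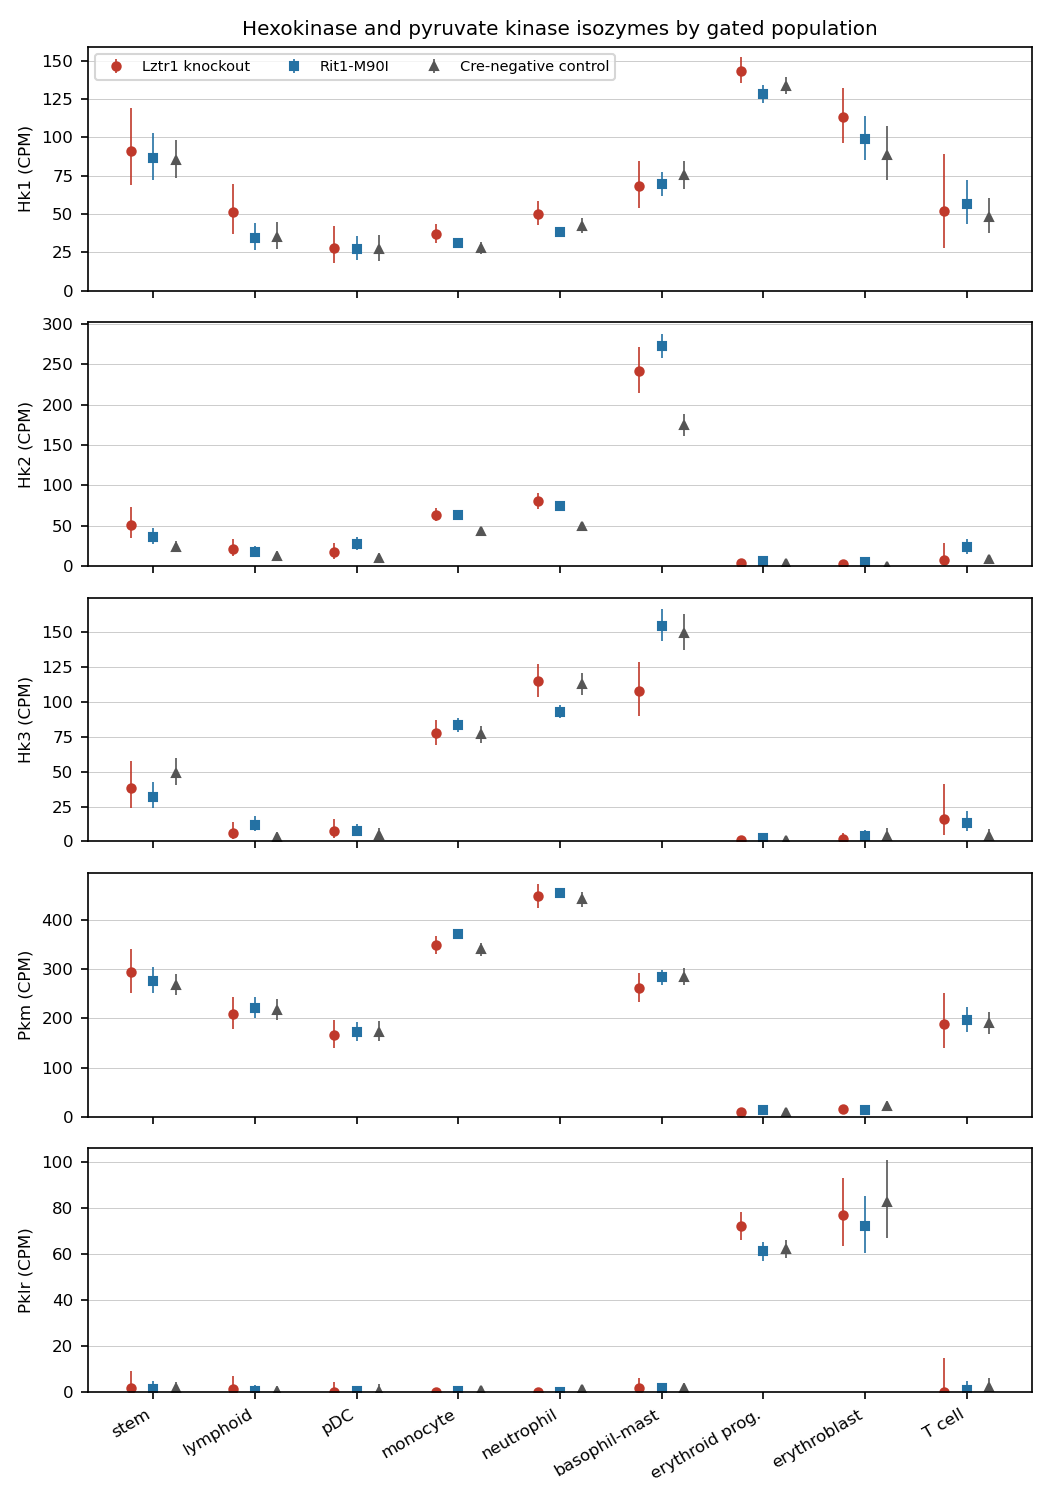
Level of the hexokinase and pyruvate kinase isozymes (y axes, CPM) in each population, with 1 point per library and bars for the exact 95% counting interval. Hk1 is the high hexokinase of both erythroid populations, Hk2 and Hk3 of the basophil/mast-like, neutrophil-like and monocyte-like ones, and Pklr is high in the erythroid pair, where Pkm is low.

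Pyruvate kinase showed the sharpest division. Pklr, the liver and red cell isozyme, stood at 72.1 CPM in the Lztr1 knockout, 61.1 CPM in the Rit1-M90I and 62.0 CPM in the control library in erythroid-progenitor-like cells (log2 difference 5.42 ± 0.12 (SE), edgeR adjusted p = 2.5e-51). The erythroblast-like cells had 77.0, 72.0 and 82.7 CPM in the Lztr1 knockout, Rit1-M90I and control libraries (log2 difference 5.79 ± 0.17 (SE), edgeR adjusted p = 2.7e-43). In the 21 libraries of the 7 other populations Pklr stood at 0 to 2.06 CPM. The summed hemoglobin-rich erythroblast markers stood at 17.7 to 65.7 CPM in those 21 sums and at 6749 to 10415 CPM in the erythroblast-like cells, so that a low level of erythroid RNA was counted in them; its part in the low Pklr counts was not tested.

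Pkm, the isozyme of most other tissues, ran the opposite way. It stood at 9.36, 14.9 and 10.3 CPM in the Lztr1 knockout, Rit1-M90I and control libraries in erythroid-progenitor-like cells (log2 difference -3.91 ± 0.09 (SE), edgeR adjusted p = 1.3e-50) and at 16.1, 13.8 and 21.1 CPM in the Lztr1 knockout, Rit1-M90I and control libraries in erythroblast-like cells (log2 difference -3.26 ± 0.13 (SE), edgeR adjusted p = 9.0e-36). The other 7 populations held 167 to 453 CPM, and the neutrophil-like cells were the highest, with 447, 453 and 441 CPM in the Lztr1 knockout, Rit1-M90I and control libraries (log2 difference 2.24 ± 0.05 (SE), edgeR adjusted p = 6.0e-49). Pklr thus gave 84.9% ± 4.10 of pyruvate kinase UMIs in erythroid-progenitor-like and 82.1% ± 2.20 in erythroblast-like cells, against at most 0.7% on average in any other population. The counts are per gene, so the M1 and M2 splice forms of Pkm were not separated.

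In the preparatory phase of glycolysis, Gpi1, which converts glucose 6-phosphate to fructose 6-phosphate, was highest in neutrophil-like cells, with 555, 576 and 608 CPM in the Lztr1 knockout, Rit1-M90I and control libraries (log2 difference 1.64 ± 0.05 (SE), edgeR adjusted p = 7.3e-43). Erythroblast-like cells held 60.9 to 80.4 CPM, a log2 difference of -1.85 ± 0.08 from the other populations. The phosphofructokinase genes were again divided. Pfkp, the platelet isozyme, stood at 154, 163 and 159 CPM in the Lztr1 knockout, Rit1-M90I and control libraries in basophil/mast-like cells (log2 difference 2.69 ± 0.08 (SE), edgeR adjusted p = 4.0e-44) and at 121, 139 and 118 CPM in the Lztr1 knockout, Rit1-M90I and control libraries in T-like cells (log2 difference 2.37 ± 0.11 (SE), edgeR adjusted p = 2.7e-30). All other libraries held 1.40 to 53.3 CPM of it. Pfkm, the muscle isozyme, was the erythroid one, with 60.2, 51.3 and 52.3 CPM in the Lztr1 knockout, Rit1-M90I and control libraries in erythroblast-like (log2 difference 2.87 ± 0.15 (SE), edgeR adjusted p = 8.4e-28) and 32.7 to 34.2 CPM in erythroid-progenitor-like cells (1.98 ± 0.10), against 2.06 to 18.0 CPM elsewhere. The liver isozyme Pfkl varied less, from 14.7 to 62.9 CPM, and was highest in the stem-like cells (0.71 ± 0.11).

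As shares of phosphofructokinase UMIs, Pfkp gave 82.5% ± 0.710 in basophil/mast-like and 79.9% ± 1.47 in T-like cells. Pfkm gave 62.5% ± 1.70 in erythroblast-like and 40.03% ± 0.461 in erythroid-progenitor-like cells, and Pfkl gave 58.3% ± 1.41 in stem-like cells. Pfkfb3, which makes the phosphofructokinase activator fructose 2,6-bisphosphate, was higher in basophil/mast-like (1.84 ± 0.15) and neutrophil-like cells (1.72 ± 0.13), at 16.5 to 30.1 CPM, and lower in both erythroid populations, at 0 to 4.23 CPM. Aldoa, the main aldolase, was highest in neutrophil-like cells, with 424, 512 and 447 CPM in the Lztr1 knockout, Rit1-M90I and control libraries (1.53 ± 0.05), and lowest in pDC-like cells, with 87.0 to 112 CPM (-1.52 ± 0.09). It gave at least 97.5% of aldolase UMIs on average in every population, and Aldoc reached 10.3 CPM at most. The second table row of Aldoa held 2 UMIs in the Lztr1 knockout, 7 in the Rit1-M90I and 5 in the control library.

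In the later, ATP-forming phase, the neutrophil-like cells had the highest mean level of each main enzyme. Pgam1, phosphoglycerate mutase, differed most, with 599 CPM in the Lztr1 knockout, 581 CPM in the Rit1-M90I and 561 CPM in the control library (log2 difference 2.49 ± 0.05 (SE), edgeR adjusted p = 1.1e-47). Monocyte-like cells followed with 471 to 495 CPM (1.99 ± 0.06), while the erythroid-progenitor-like and erythroblast-like cells held 25.3 to 42.9 CPM (-2.25 ± 0.08 and -2.31 ± 0.12). The neutrophil-like range lay above that of every other population and the erythroid ranges below. Gapdh was the most abundant gene of the list in neutrophil-like cells, with 1209.7, 1341 and 1188 CPM in the Lztr1 knockout, Rit1-M90I and control libraries (1.36 ± 0.05). T-like cells had the least, 349.7 to 409 CPM (-0.89 ± 0.08).

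Pgk1, which makes the first ATP of the pathway, was higher in neutrophil-like (1.34 ± 0.06) and monocyte-like cells (0.85 ± 0.06). Tpi1, which interconverts the triose phosphates and belongs to the preparatory phase, was likewise higher in neutrophil-like cells (1.16 ± 0.06), at 247 to 285 CPM. It was also higher in erythroid-progenitor-like cells (0.67 ± 0.06), at 221 to 247 CPM, and lower in T-like cells (-0.84 ± 0.11). Eno1, the common enolase, was higher in neutrophil-like cells (1.36 ± 0.06), at 178 to 202 CPM, and in T-like cells (0.63 ± 0.09). The muscle enolase Eno3 stayed at or below 20.1 CPM, and Eno2 at or below 0.898 CPM. Counts of Gapdh and Eno1 are uncertain to the extent that reads can be shared: 79.5% of the 91-base stretches in the last 500 bases of Gapdh also occur in other annotated genes, mostly pseudogenes, as do 52.7% of those of Eno1 and 13.9% of those of Ldhb.

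Lactate handling was also split by lineage. Ldha, the lactate dehydrogenase subunit that favours lactate, was abundant everywhere, from 181 to 552 CPM. It was higher in neutrophil-like (1.004 ± 0.06) and erythroid-progenitor-like cells (0.73 ± 0.06) and lower in pDC-like cells (-0.85 ± 0.08). Ldhb, the subunit that favours pyruvate, was high in neutrophil-like cells, with 56.1 CPM in the Lztr1 knockout, 50.8 CPM in the Rit1-M90I and 71.9 CPM in the control library (log2 difference 3.17 ± 0.11 (SE), edgeR adjusted p = 8.3e-31). Stem-like cells had 23.2, 32.8 and 49.4 CPM in the Lztr1 knockout, Rit1-M90I and control libraries (log2 difference 1.88 ± 0.18 (SE), edgeR adjusted p = 2.3e-12). Basophil/mast-like and both erythroid populations held only 1.15 to 3.87 CPM. Ldhb gave 10.7% ± 2.55 of lactate dehydrogenase UMIs in neutrophil-like and 9.33% ± 3.58 in stem-like cells, and under 1% in those 3 populations.

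Export of lactate runs through monocarboxylate transporters. Slc16a1, which encodes MCT1, was highest in erythroblast-like cells, with 143, 137 and 133 CPM in the Lztr1 knockout, Rit1-M90I and control libraries (log2 difference 2.72 ± 0.09 (SE), edgeR adjusted p = 1.2e-40), followed by erythroid-progenitor-like cells, with 86.3 to 100.2 CPM (1.97 ± 0.07). It was lowest in basophil/mast-like cells, with 6.36 to 10.2 CPM (-2.16 ± 0.14). Slc16a3, which encodes MCT4, the exporter of strongly glycolytic cells, was instead highest there, with 31.5, 27.6 and 31.5 CPM in the Lztr1 knockout, Rit1-M90I and control libraries (log2 difference 2.88 ± 0.15 (SE), edgeR adjusted p = 1.7e-28), and no other library exceeded 8.30 CPM. Slc16a3 gave 78.9% ± 3.95 of the UMIs of the pair in basophil/mast-like cells and 1.71% ± 0.367 in erythroid-progenitor-like cells.

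At the branch points of pyruvate and gluconeogenesis, Pdk1, the kinase that shuts pyruvate dehydrogenase, was highest in lymphoid-like cells, with 73.3, 75.3 and 69.1 CPM in the Lztr1 knockout, Rit1-M90I and control libraries (log2 difference 1.02 ± 0.10 (SE), edgeR adjusted p = 1.2e-13). Basophil/mast-like cells held 8.06 to 9.37 CPM of it (log2 difference -2.39 ± 0.14 (SE), edgeR adjusted p = 1.7e-25), with no overlap with any other population. Pdha1, the catalytic subunit that Pdk1 acts on, varied little, from 50.3 to 109 CPM, and was lower in basophil/mast-like cells (-0.67 ± 0.09). Fbp1, the gluconeogenic fructose bisphosphatase, was low. It was higher in neutrophil-like cells, with 19.3, 8.11 and 10.3 CPM in the Lztr1 knockout, Rit1-M90I and control libraries (log2 difference 3.03 ± 0.27 (SE), edgeR adjusted p = 7.2e-13). It was also higher in stem-like cells, with 36.5, 5.91 and 12.1 CPM in the Lztr1 knockout, Rit1-M90I and control libraries (log2 difference 2.88 ± 0.40 (SE), edgeR adjusted p = 1.3e-07), where the Lztr1 knockout library stood well above the other two.

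The pentose phosphate genes were again highest in myeloid cells, though not in the same one. G6pdx, the X-linked glucose 6-phosphate dehydrogenase that starts the oxidative branch, was highest in monocyte-like cells, with 59.2, 57.3 and 49.0 CPM in the Lztr1 knockout, Rit1-M90I and control libraries (log2 difference 1.23 ± 0.08 (SE), edgeR adjusted p = 3.0e-23). Pgd, the next NADPH-forming enzyme, was highest in neutrophil-like cells, with 145, 162 and 146 CPM in the Lztr1 knockout, Rit1-M90I and control libraries (log2 difference 1.80 ± 0.06 (SE), edgeR adjusted p = 2.2e-38), followed by basophil/mast-like cells, with 107 to 117 CPM (0.95 ± 0.08).

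Of the non-oxidative enzymes, Tkt, transketolase, was higher in neutrophil-like (1.06 ± 0.05) and monocyte-like cells (0.61 ± 0.05), at 499.8 to 604 CPM, and lower in T-like cells, at 150.1 to 202 CPM (-1.26 ± 0.08). Taldo1, transaldolase, stood apart in basophil/mast-like cells, with 888 CPM in the Lztr1 knockout, 802 CPM in the Rit1-M90I and 809.7 CPM in the control library, against 155 to 459.8 CPM elsewhere (log2 difference 1.41 ± 0.05 (SE), edgeR adjusted p = 2.3e-37). It was lower in T-like (-1.17 ± 0.08), lymphoid-like (-1.05 ± 0.07) and stem-like cells (-0.90 ± 0.07). In both erythroid populations Tkt and Taldo1 were higher than in the mean of the rest, by 0.24 to 0.59 on the log2 scale, unlike most of the glycolytic genes in erythroblast-like cells.

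Outside the 32, 66 further genes of the pathway and its surroundings were in the tables, from a fixed list in 6 groups, and 50 were tested. In neutrophil-like cells 32 of the 50 were higher and 5 lower, where 38.8% and 29.6% of all genes were called, and in monocyte-like cells 24 and 8 (37.1% and 22.2%). The counts higher and lower were 20 and 19 in basophil/mast-like cells (32.9% and 36.6% of all genes), 24 and 20 in erythroid-progenitor-like cells (40.5% and 33.8%) and 20 and 21 in erythroblast-like cells (34.1% and 35.0%). They were 12 and 15 in stem-like cells (25.3% and 22.8%), 12 and 16 in pDC-like cells (24.8% and 21.2%), 9 and 15 in lymphoid-like cells (24.6% and 19.8%) and 12 and 20 in T-like cells (27.2% and 28.1%). The following group counts were chosen after the values of all 6 groups in the 9 populations were seen. Of the 8 glycogen genes, 7 were higher and 0 lower in neutrophil-like cells (38.8% of all genes higher), 7 higher and 1 lower in monocyte-like cells (37.1% higher), and 0 higher and 6 lower in erythroblast-like cells (35.0% lower). Of the 12 genes that bring pyruvate into mitochondria, 10 were higher and 2 lower in erythroid-progenitor-like cells (40.5% of all genes higher), and 1 was higher and 8 lower in T-like cells (28.1% lower). In neutrophil-like cells 6 of 7 pentose phosphate and ribose genes were higher and 0 lower, and 7 of 10 genes of the hypoxia group were higher and 2 lower (38.8% of all genes higher).

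Among the single genes with the highest and lowest differences, basophil/mast-like cells held Ldhc, a lactate dehydrogenase known from sperm (21.9 ± 2.81 CPM, log2 difference 6.87 ± 0.30), and Slc2a6, a hexose transporter of lysosomes (25.2 ± 4.86 CPM, log2 difference 4.27 ± 0.20), and were low in Tigar, a fructose bisphosphatase (1.49 ± 1.74 CPM, log2 difference -1.64 ± 0.56), and Egln1, an oxygen-sensing prolyl hydroxylase (14.3 ± 2.17 CPM, log2 difference -1.56 ± 0.12). Neutrophil-like cells were high in the HIF targets Vegfa (13.4 ± 1.25 CPM, log2 difference 3.23 ± 0.19) and Egln3 (24.2 ± 0.625 CPM, log2 difference 3.22 ± 0.14), and low in the pyruvate dehydrogenase kinase Pdk2 (2.07 ± 0.211 CPM, log2 difference -1.16 ± 0.21) and the HIF ubiquitin ligase subunit Vhl (6.02 ± 1.76 CPM, log2 difference -0.79 ± 0.15). Monocyte-like cells were high in Slc2a6 (11.4 ± 1.72 CPM, log2 difference 3.12 ± 0.20) and Tigar (9.29 ± 1.44 CPM, log2 difference 2.11 ± 0.20), and low in pyruvate carboxylase, Pcx (1.13 ± 0.586 CPM, log2 difference -0.85 ± 0.38), and Pdk2 (2.95 ± 0.329 CPM, log2 difference -0.77 ± 0.19).

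Erythroid-progenitor-like cells were high in Minpp1, which dephosphorylates inositol polyphosphates and 2,3-bisphosphoglycerate (259 ± 5.03 CPM, log2 difference 2.63 ± 0.05), and at a level below 1 CPM in Slc2a4, the insulin-responsive transporter (0.137 ± 0.146 CPM, log2 difference 1.74 ± 0.73). They were low in Slc2a6 (0.130 ± 0.110 CPM, log2 difference -4.11 ± 0.71) and Tigar (0.219 ± 0.0374 CPM, log2 difference -3.81 ± 0.70). Erythroblast-like cells were high in Slc2a4 (6.95 ± 1.02 CPM, log2 difference 7.72 ± 0.66) and Pcx (15.0 ± 3.69 CPM, log2 difference 3.58 ± 0.29), and low in Egln3 (0.233 ± 0.404 CPM, log2 difference -4.35 ± 0.76) and Slc2a9 (0.233 ± 0.404 CPM, log2 difference -3.82 ± 0.90).

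Lymphoid-like cells were high in Vegfa (7.95 ± 0.782 CPM, log2 difference 1.88 ± 0.40) and Egln1 (97.1 ± 6.96 CPM, log2 difference 1.36 ± 0.09), and low in Pcx (0.356 ± 0.309 CPM, log2 difference -2.31 ± 0.78) and the glycogen phosphorylase Pygl (9.14 ± 4.14 CPM, log2 difference -1.50 ± 0.23). The pDC-like cells were high in Slc2a6 (6.66 ± 4.16 CPM, log2 difference 2.09 ± 0.37) and in Pgls, the lactonase between G6pdx and Pgd (1085 ± 73.0 CPM, log2 difference 1.55 ± 0.06), and low in Pygl (5.06 ± 0.992 CPM, log2 difference -2.31 ± 0.26) and the HIF-induced oxidase Ero1l (11.7 ± 2.70 CPM, log2 difference -1.75 ± 0.17). Stem-like cells were high in the urate and hexose transporter Slc2a9 (9.68 ± 2.63 CPM, log2 difference 1.87 ± 0.34) and Egln3 (14.9 ± 3.28 CPM, log2 difference 1.87 ± 0.26), and low in Slc2a6 (0.299 ± 0.518 CPM, log2 difference -2.27 ± 0.84) and ribokinase, Rbks (5.87 ± 0.877 CPM, log2 difference -1.17 ± 0.25). T-like cells were high in Tigar (8.13 ± 2.10 CPM, log2 difference 1.94 ± 0.42) and the glycogen phosphorylase Pygb (21.2 ± 15.5 CPM, log2 difference 1.16 ± 0.21), low in Pck2, the mitochondrial carboxykinase (13.4 ± 4.88 CPM, log2 difference -2.001 ± 0.19), and had no Vegfa UMI in any library, for which no fold is given.

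Cells with many and few mitosis transcripts were then compared within a population. Mitosis-high cells had at least 10 UMIs of 17 mitosis genes per 10000 and mitosis-low cells at most 2. Only the erythroid-progenitor-like and basophil/mast-like populations had at least 30 cells of both kinds in every library. In erythroid-progenitor-like cells 15 of 25 tested genes were higher in mitosis-high cells and 5 lower, where 29.6% and 30.0% of 9796 genes were called in those directions, and the median log2 difference was 0.37 for the list and -0.02 for all genes. The mitosis-high cells were deeper, with medians of 25479, 20453 and 22156.5 UMIs against 8372, 5754.5 and 6223.5 in the mitosis-low cells of the Lztr1 knockout, Rit1-M90I and control libraries, and the part of depth in the result was not tested.

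The pyruvate kinase genes moved in opposite directions there. Pklr stood at 81.3, 71.5 and 73.0 CPM in mitosis-high cells against 25.9, 12.3 and 14.1 CPM in mitosis-low cells of the Lztr1 knockout, Rit1-M90I and control libraries (log2 difference 2.29 ± 0.16 (SE), edgeR adjusted p = 4.9e-43). Pkm stood at 6.82, 10.3 and 6.12 CPM in mitosis-high cells against 27.7, 43.0 and 36.5 CPM in mitosis-low cells of the Lztr1 knockout, Rit1-M90I and control libraries (log2 difference -2.21 ± 0.20 (SE), edgeR adjusted p = 1.0e-27). The 2 classes did not overlap for either gene. Pfkm (1.10 ± 0.18), Slc16a1 (0.90 ± 0.11), Tpi1 (0.84 ± 0.08), Taldo1 (0.56 ± 0.06), Gapdh (0.54 ± 0.05) and Ldha (0.45 ± 0.06) were higher in mitosis-high cells. Pfkfb3 (-1.76 ± 0.37), Hk2 (-1.74 ± 0.30) and Gpi1 (-0.66 ± 0.07) were lower. Of the 20 calls, the other 9, 8 higher and 1 lower, did not hold under every alternative, and Eno3, Pgd, Pdha1, G6pdx and Hk1 lost theirs without the control library.

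In basophil/mast-like cells 3 of 24 genes were higher in mitosis-high cells and 7 lower, where 16.8% and 15.1% of 8379 genes were called, with a median of -0.15 for the list and -0.01 for all genes. The mitosis-high cells were deeper here too, with medians of 5467, 4376 and 4777 UMIs in the Lztr1 knockout, Rit1-M90I and control libraries. The mitosis-low cells had 2777.5, 2259 and 2142 UMIs in the same order, and the part of depth in the result was not tested. Aldoa stood at 247, 299 and 236 CPM in mitosis-high cells against 538, 531 and 476 CPM in mitosis-low cells of the Lztr1 knockout, Rit1-M90I and control libraries (log2 difference -0.94 ± 0.09 (SE), edgeR adjusted p = 1.4e-18). Slc2a3 stood at 62.6, 72.9 and 57.9 CPM in mitosis-high cells against 139.6, 128 and 128 CPM in mitosis-low cells of the Lztr1 knockout, Rit1-M90I and control libraries (log2 difference -0.97 ± 0.15 (SE), edgeR adjusted p = 7.1e-09). Gpi1 (-0.62 ± 0.09) and Taldo1 (-0.36 ± 0.07) were lower as well. Pgk1 stood at 274, 241 and 229 CPM in mitosis-high cells against 155, 149 and 129 CPM in mitosis-low cells of the Lztr1 knockout, Rit1-M90I and control libraries (log2 difference 0.79 ± 0.11 (SE), edgeR adjusted p = 5.1e-10), and Tpi1 (0.62 ± 0.13) and Gapdh (0.55 ± 0.08) were higher too. Pgd, Hk2 and Hk3 were called lower, but lost the call without the control library. Gpi1 was thus lower in mitosis-high cells of both populations, and Tpi1 and Gapdh higher in both.

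**Figure D4:**
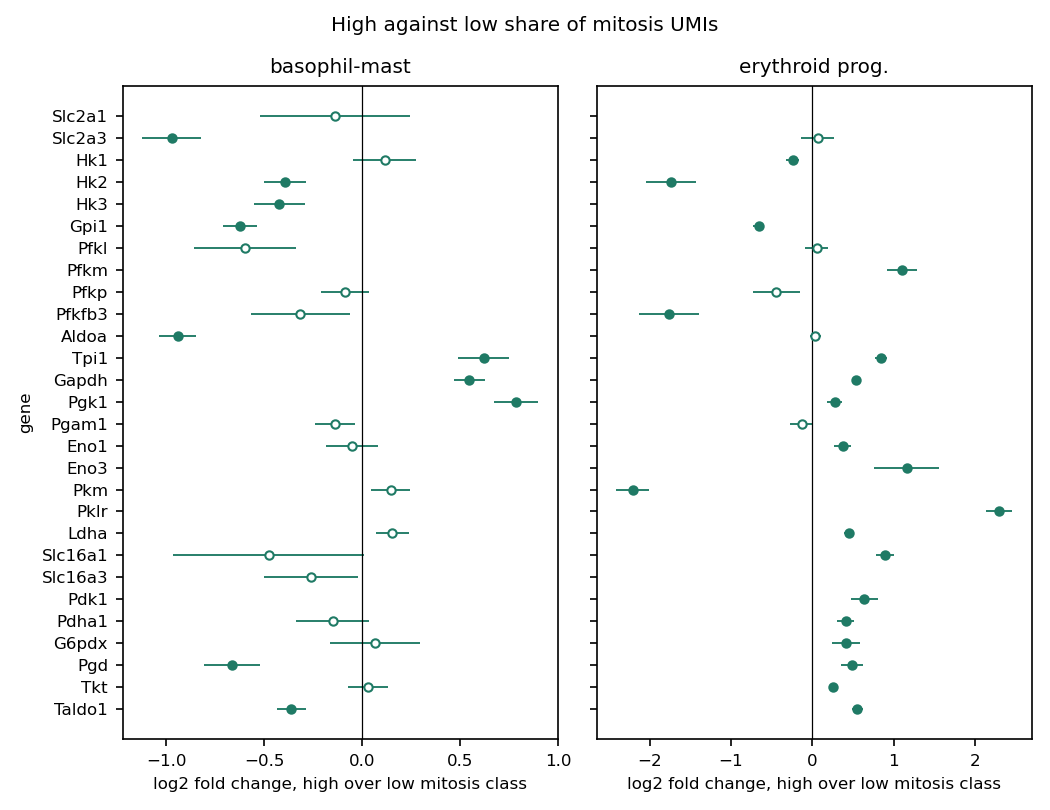
Log2 difference between mitosis-high and mitosis-low cells for each tested gene in the erythroid-progenitor-like and basophil/mast-like populations, with SE bars from edgeR and filled points for calls. Pklr at 2.29 and Pkm at -2.21 are the extremes in the erythroid-progenitor-like cells.

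Between genotypes there was 1 library a group, so the values below have no replicate check and no test. Intervals are exact 95% intervals for counting error only, and both mutants are set against the same control library. Over all kept cells, 23 genes of the list reached 20 CPM in the Lztr1 knockout or control library, and 1 of them was past 1.5-fold (all genes of that level: 0.477% higher, 0.691% lower). That gene was Ldhb, with 13.3 CPM in Lztr1 knockout and 21.5 CPM in control cells, a ratio of 0.617 (95% interval 0.549 to 0.693). Only the control library reached 20 CPM, so the cut itself set that direction. Of 22 genes at that level in the Rit1-M90I or control library, 1 was past 1.5-fold (all genes: 0.583% higher, 0.533% lower). It was Hk2, with 58.3 CPM in Rit1-M90I and 33.4 CPM in control cells, a ratio of 1.74 (95% interval 1.66 to 1.84). The median log2 ratio, with 10 CPM added, was -0.02 for the list and 0.02 for all genes in the Lztr1 knockout, and 0.10 and -0.05 in Rit1-M90I.

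Hk2 was higher in the mutant than in the control library in every population in which either library reached 20 CPM, 5 in the Lztr1 knockout comparison and 6 in that of Rit1-M90I. In the Lztr1 knockout lymphoid-like cells and the Rit1-M90I pDC-like and T-like cells, only the mutant library reached 20 CPM. The cut itself set the direction in those. In stem-like cells Hk2 stood at 51.5 CPM in Lztr1 knockout and 23.8 CPM in control cells, a ratio of 2.16 (95% interval 1.34 to 3.43). The Rit1-M90I library had 36.1 CPM there, a ratio of 1.52 (1.02 to 2.26). In the other populations the Lztr1 knockout ratios were 1.60 (1.36 to 1.89) in neutrophil-like, 1.45 (1.23 to 1.72) in monocyte-like, 1.38 (1.20 to 1.59) in basophil/mast-like and 1.60 (0.811 to 3.08) in lymphoid-like cells. The Rit1-M90I ratios were 1.497 (1.33 to 1.68) in neutrophil-like, 1.44 (1.27 to 1.64) in monocyte-like and 1.56 (1.42 to 1.72) in basophil/mast-like cells. Only the interval of the Lztr1 knockout lymphoid-like cells reached below 1.

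In the pDC-like and T-like cells, only the Rit1-M90I library reached 20 CPM of Hk2. The pDC-like value rested on 53 UMIs in Rit1-M90I and 16 in control cells, a ratio of 2.81 (1.58 to 5.27). The T-like value rested on 27 UMIs in Rit1-M90I and 12 in control cells, a ratio of 2.85 (1.40 to 6.18). The 12 neutrophil markers differed in the same direction between the Rit1-M90I and control libraries in these populations. In T-like cells the Lztr1 knockout library had the most of these markers, and no more Hk2 CPM than the control library. The summed level of the markers in pDC-like cells was 704 CPM in the Lztr1 knockout, 1021 CPM in the Rit1-M90I and 279.6 CPM in the control library. In T-like cells it was 1121 CPM in the Lztr1 knockout, 820.0 CPM in the Rit1-M90I and 274 CPM in the control library, and in lymphoid-like cells 829.8 CPM in the Lztr1 knockout, 792 CPM in the Rit1-M90I and 239 CPM in the control library. In the basophil/mast-like cells, where Hk2 was most abundant, it was 3200.3 CPM in the Lztr1 knockout, 3075 CPM in the Rit1-M90I and 3472 CPM in the control library, lower in both mutants. In stem-like cells it was 1469.6 CPM in the Lztr1 knockout, 1614 CPM in the Rit1-M90I and 2018 CPM in the control library, lower in both mutants, and in monocyte-like cells 7259.9 CPM in the Lztr1 knockout, 8431 CPM in the Rit1-M90I and 6873 CPM in the control library, higher in both. The 9 basophil and mast cell markers, from the population with the most Hk2, were also higher in both mutants than in the control library in T-like, pDC-like and lymphoid-like cells. In T-like cells they summed to 366 CPM in the Lztr1 knockout, 227 CPM in the Rit1-M90I and 91.2 CPM in the control library. In pDC-like cells they summed to 69.9 CPM in the Lztr1 knockout, 112 CPM in the Rit1-M90I and 45.3 CPM in the control library, and in lymphoid-like cells to 57.4 CPM in the Lztr1 knockout, 125 CPM in the Rit1-M90I and 46.7 CPM in the control library. In neutrophil-like, stem-like and monocyte-like cells the mutants did not both lie above the control library. Neutrophil-like cells had 400.5 CPM in the Lztr1 knockout, 168 CPM in the Rit1-M90I and 210.1 CPM in the control library. Stem-like cells had 227 CPM in the Lztr1 knockout, 376 CPM in the Rit1-M90I and 284 CPM in the control library, and monocyte-like cells 43.0 CPM in the Lztr1 knockout, 92.7 CPM in the Rit1-M90I and 51.0 CPM in the control library. The part of either marker list in the Hk2 values was not tested.

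**Figure D5:**
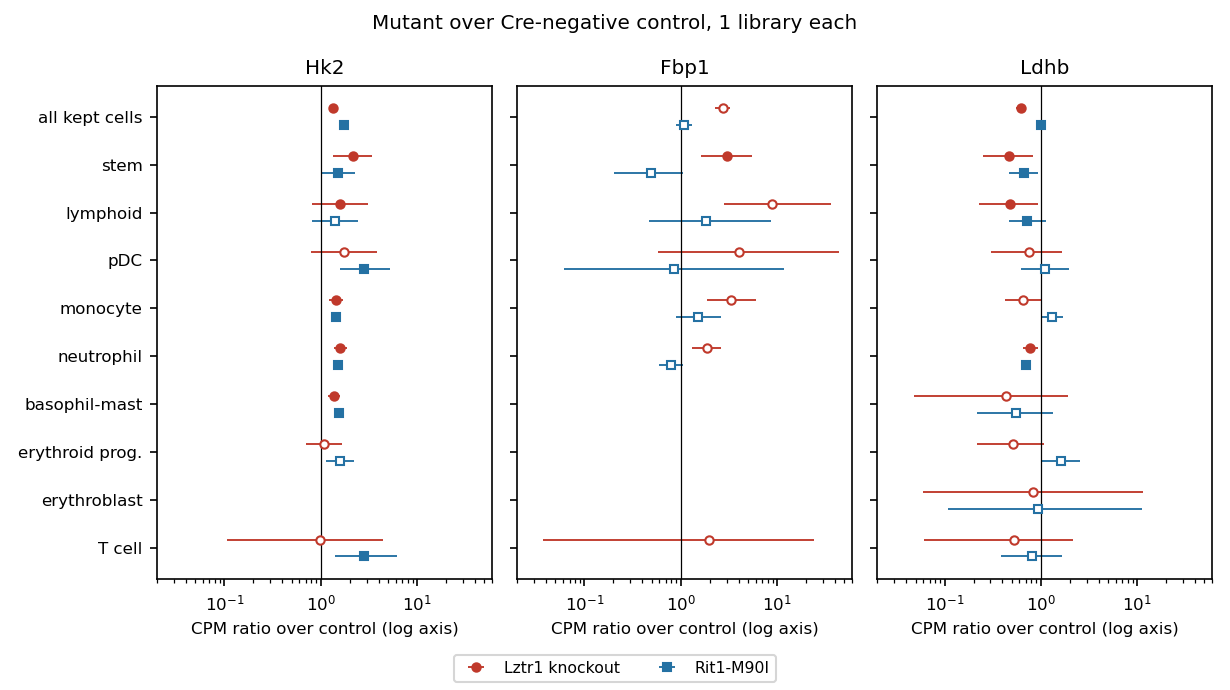
Ratio of CPM, mutant over control library (x axis, log scale), of Hk2, Fbp1 and Ldhb in all kept cells and in each population, with exact 95% counting intervals. Points are filled where the gene reached 20 CPM in either library, and none is drawn where a library had 0 UMIs. All filled Hk2 points lie above 1, and all filled Ldhb points of single populations below 1. Where only a single library of a pair reached 20 CPM, the cut itself set the side.

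Ldhb was lower in the mutants in each of the 3 populations in which either library reached 20 CPM. In the Lztr1 knockout lymphoid-like cells only the control library reached 20 CPM, so the cut itself set the direction there. In stem-like cells Ldhb had 23.2 CPM in Lztr1 knockout and 49.4 CPM in control cells, a ratio of 0.471 (95% interval 0.249 to 0.824), and a ratio of 0.665 (0.466 to 0.937) in Rit1-M90I. The Lztr1 knockout ratios were 0.781 (0.656 to 0.927) in neutrophil-like and 0.479 (0.226 to 0.927) in lymphoid-like cells. The Rit1-M90I ratios were 0.707 (0.633 to 0.789) in neutrophil-like and 0.725 (0.464 to 1.12) in lymphoid-like cells. In stem-like cells the neutrophil markers summed to 1469.6 CPM in the Lztr1 knockout, 1614 CPM in the Rit1-M90I and 2018 CPM in the control library. That is the order of libraries of Ldhb there. In lymphoid-like cells the markers ran the other way, with 829.8, 792 and 239 CPM in the same order of libraries. The part of these markers in the Ldhb values was not tested. Over all Rit1-M90I cells the Ldhb ratio was 1.003 (0.934 to 1.08). Neutrophil-like cells, the highest in Ldhb, made up 7.74% of kept cells in the Lztr1 knockout, 12.2% in the Rit1-M90I and 8.39% in the control library, and the part of these shares in the values over all cells was not tested.

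Fbp1 was higher in the Lztr1 knockout than in the control library in several populations. In stem-like cells it had 22 UMIs in Lztr1 knockout and 27 in control cells, a ratio of 3.01 (1.64 to 5.50). Only the Lztr1 knockout library reached 20 CPM there, so the cut itself set that direction. Below 20 CPM, the ratio was 3.30 (1.86 to 5.98) in monocyte-like and 1.87 (1.32 to 2.65) in neutrophil-like cells, and lymphoid-like cells had 15 UMIs in Lztr1 knockout and 4 in control cells. In Rit1-M90I stem-like cells 9 UMIs were counted, a ratio of 0.487 (0.202 to 1.07) to the control library.

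Smaller differences ran through several populations. In Rit1-M90I, Aldoa was higher in 8 of 9 populations, with 6 of the intervals above 1 and ratios of up to 1.28. Tpi1 was lower in 8 of 9, with 4 intervals below 1 and 1 above it. Its lowest ratio was 0.691 (0.529 to 0.899) in T-like cells. Pgam1 was also higher in 8 of 9 (2 intervals above 1). Pfkl and Taldo1 were lower in 8 of 9 (2 and 3 intervals below 1). In the Lztr1 knockout, Hk1 was higher (1 interval above 1) and Gpi1 lower (2 below 1) in 8 of 9. The share of all genes with such a run was not counted. In the Lztr1 knockout Aldoa was higher in 4 of 9 and Tpi1 in 3 of 9. Ratios past 1.5-fold in a single population were also found. In Lztr1 knockout stem-like cells they were 1.61 (0.901 to 2.77) for Slc16a1 and 0.544 (0.250 to 1.06) for G6pdx. In its lymphoid-like cells they were 1.99 (1.08 to 3.65) for Slc2a3 and 1.64 (1.07 to 2.48) for Pfkl. In its pDC-like cells Pfkl stood at 0.572 (0.274 to 1.11). In its T-like cells the ratios were 2.66 (0.726 to 8.32) for Eno3 and 0.355 (0.0413 to 1.39) for G6pdx. Only a single library of the pair reached 20 CPM for Slc2a3 in lymphoid-like and Pfkl in pDC-like cells. The same held for Eno3 in T-like cells and for G6pdx in stem-like and T-like cells. The cut itself set the direction in those, and they enter the counts below. In Rit1-M90I such ratios were 0.651 (0.455 to 0.920) for Hk3 in stem-like cells and 1.69 (1.10 to 2.67) for Pgam1 in erythroblast-like cells. Pkm stood at 0.652 (0.362 to 1.18) in erythroblast-like cells, where its direction changed under 4 alternatives. Only the control library reached 20 CPM of Pkm there, so the cut itself set that direction. In stem-like cells 5 of 24 genes of the list were past this fold in the Lztr1 knockout, where 6.62% of all genes were higher and 7.4% lower, and 3 of 23 in Rit1-M90I (2.74% and 2.68%). For the other populations with such genes, the shares of all genes higher and lower were 6.14% and 4.72% in the Lztr1 knockout lymphoid-like cells, where 4 of 21 genes of the list were past the fold. They were 5.14% and 4.56% for 1 of 18 in pDC-like, 2.08% and 0.368% for 1 of 23 in neutrophil-like and 17.4% and 13.2% for 2 of 20 in T-like cells, the smallest sum. In Rit1-M90I they were 3.03% and 3.19% for 1 of 19 in pDC-like, 0.897% and 0.522% for 1 of 22 in basophil/mast-like, 2.41% and 4.62% for 2 of 20 in erythroblast-like and 5.11% and 4.9% for 1 of 20 in T-like cells.

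Pklr and Slc16a1 over all cells stood in the same order of libraries as the share of erythroid-progenitor-like cells, which was 17.2% in the Lztr1 knockout, 9.6% in the Rit1-M90I and 13.7% in the control library. Over all cells Pklr had 25.5 CPM in Lztr1 knockout and 19.6 CPM in control cells, a ratio of 1.30 (95% interval 1.18 to 1.43). Within erythroid-progenitor-like cells the ratio was 1.16 (1.05 to 1.29). In Rit1-M90I the Pklr ratios were 0.688 (0.633 to 0.747) over all and 0.985 (0.899 to 1.08) within erythroid-progenitor-like cells. The part of the cell shares in the values over all cells was not tested. Among the further pathway genes of at least 50 CPM, the highest and lowest ratios over all cells were, in the Lztr1 knockout, 1.10 (1.05 to 1.15) for Rpia, a ribose 5-phosphate isomerase, 1.09 (1.04 to 1.13) for Minpp1, 0.956 (0.919 to 0.994) for the mitochondrial pyruvate carrier Mpc2 and 0.937 (0.917 to 0.958) for Pgls. In Rit1-M90I they were 1.16 (1.13 to 1.19) for Mpc1 and 1.08 (1.05 to 1.11) for Mpc2, 0.913 (0.884 to 0.943) for phosphoglycolate phosphatase, Pgp, and 0.767 (0.741 to 0.794) for Minpp1.

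Of the populations too small for the tests, the eosinophil-like cells (7, 16 and 21 cells in the Lztr1 knockout, Rit1-M90I and control libraries) held 72.8 CPM (95% interval 43.8 to 114) of Hk3, 46.0 CPM (95% interval 23.8 to 80.3) of Ldhb and 142 CPM (95% interval 99.8 to 195) of Ldhc, summed over the libraries. The macrophage-like cells held 93.7 CPM (95% interval 70.0 to 123) of Hk3 and 68.5 CPM (95% interval 48.5 to 94.0) of Hk2. Hk1 was high in megakaryocyte-like cells, at 102 CPM (95% interval 90.0 to 116), next to 61.7 CPM (95% interval 52.2 to 72.3) of Slc2a3. NK-like cells held 108 CPM (95% interval 89.0 to 129) of Pfkp, against 118 to 139 CPM in the T-like libraries. Their Slc2a1 level was 26.7 CPM (95% interval 17.9 to 38.3), above the 12.1 to 17.1 CPM of the T-like libraries. Plasma-cell-like cells had the lowest Pkm of these populations, 84.0 CPM (95% interval 76.1 to 92.6), and Pklr stood at 4.53 CPM (95% interval 2.84 to 6.86) in them.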

How the data were processed

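Bone marrow cells of 3 mouse genotypes were profiled with 10x 3′ v3 chemistry, 1 library each. The files deposited by the authors hold whole-number UMI counts for each gene in each barcode, not normalized, with 30398349 UMIs in 3014 barcodes of the Lztr1 knockout, 88560148 in 11573 of the Rit1-M90I and 67541728 in 8476 of the control library. Per the submitters' processing notes, Cell Ranger 6.1.1, build mm10 and Seurat 4.1.0 were used. The sources used here give neither their settings nor an annotation release.

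Barcodes with at least 1000 UMIs, 500 genes and at most 10% mitochondrial UMIs were kept, and doublets called by Scrublet (scanpy 1.11.5, seed 0) were removed, 84 in the Lztr1 knockout, 466 in the Rit1-M90I and 261 in the control library. A cell was assigned to the population with the highest mean marker z-score if it was at least 0.5 and 0.3 above the next. These thresholds were set after seeing the data. UMIs were summed per library and population. Summed counts were tested with edgeR 4.0.16 (limma 3.58.1, R 4.3.3; quasi-likelihood, TMM, library as a block, calls at an adjusted p below 0.05), after checks on simulated data, with DESeq2 1.42.0 as an alternative. For a population, the 3 libraries are the replicates although their genotypes differ. The labels do not say from how many mice a library came, so p-values measure only the spread between these libraries. Genotypes were compared by ratios with exact conditional 95% intervals, and single levels have exact Poisson 95% intervals. Both cover counting error only. Python 3.11.15 and matplotlib 3.10.9 were used. All genes of the list could be named, and among further pathway genes the 2 highest and 2 lowest called in each population, and the 2 highest and 2 lowest of at least 50 CPM in each genotype comparison. The genes, the lists and the tests were chosen with earlier results of these data known. Alternatives covered cell filters, gates, doublets, scaling, filters on low genes, the block, each library left out, and the pseudocount of 10 CPM on log2 ratios. Scaling by library size alone was added after seeing the data.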

Additional observations from a re-analysis of the deposited data

How the results depend on the processing

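Of the tests of single genes of the list between populations, most kept their direction and their call, and the calls lost numbered 17 without the Lztr1 knockout library, 29 without the Rit1-M90I library and 31 without the control library. In the cycling comparison they numbered 1 without the Lztr1 knockout, 3 without the Rit1-M90I and 8 without the control library. Directions turned for Ldhb in monocyte-like cells under a stricter gate (-0.11, against 0.50), and with library sizes alone for Gpi1 in lymphoid-like cells (0.0057, against -0.15), Taldo1 (0.036, against -0.16) and Tkt (0.00068, against -0.19) in pDC-like cells. Without the erythroblast-like cells they turned for Hk2 (-0.0046, against 0.37) and Pgam1 (-0.078, against 0.20) in stem-like and Slc16a1 (0.014, against -0.26) in monocyte-like cells. The log2 ratio of Pkm in Rit1-M90I erythroblast-like cells was 0.031 with a stricter cell filter, 0.12 with doublets kept, 0.20 with a stricter gate and 0.087 with every barcode, against -0.39. The cause was not tested for any of these. The number of the 30 genes called stayed between 27 and 29 in neutrophil-like, 26 and 30 in erythroid-progenitor-like, 24 and 27 in basophil/mast-like, 20 and 26 in monocyte-like, 13 and 21 in stem-like and 13 and 20 in pDC-like cells. In basophil/mast-like cells the genes called between mitosis classes numbered 2678, against 1015 with DESeq2, and between 1711 and 2155 with 1 library left out, the lowest without the control library. In erythroid-progenitor-like cells DESeq2 called 13 genes of the list in place of 20. The median log2 ratio of the list in Rit1-M90I was 0.015 at the control proportions of populations and 0.030 with no filter on low genes, against 0.10. With doublets kept, the Hk1 share was 92.5% in erythroid-progenitor-like and 89.6% in erythroblast-like cells. Hk2 ratios kept their direction under every alternative run, with log2 values from 0.29 to 0.46 in the Lztr1 knockout and from 0.49 to 0.79 in Rit1-M90I over all cells. No paired analysis was possible because, between genotypes, each group has 1 library. Populations and mitosis classes were compared within libraries, with the library as a block. Without that block the genes of the list called numbered 17 in stem-like, 19 in lymphoid-like, 16 in pDC-like, 23 in monocyte-like, 28 in neutrophil-like, 27 in basophil/mast-like, 28 in erythroid-progenitor-like, 24 in erythroblast-like and 20 in T-like cells, each within 1.5 times the count with the block. Between mitosis classes they numbered 20 in erythroid-progenitor-like and 9 in basophil/mast-like cells. Depth limits the rarer populations most, where Fbp1, Pklr and Slc2a1 rest on few UMIs.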
